A study of Drosophila melanogaster with 8 samples.

Results

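The 10 genes described here encode enzymes of glycolysis, the pathway from glucose to pyruvate, in Drosophila: Hex-A, Pfk, Ald, Tpi, Gapdh1, Gapdh2, Pgk, Pglym78, Eno and PyK. They were taken by exact gene symbol from the deposited table, and all 10 were found among its 17558 genes. Pgi, for the isomerase between hexokinase and phosphofructokinase, is not among the 10 and is given further below. Bulk polyA mRNA-seq had been carried out on dissected ring glands of wandering larvae of the third instar. There were 4 libraries labelled kdm5[140], a null allele of the gene for the histone demethylase KDM5 that is carried in all tissues of the larva, and 4 WT libraries from w[1118] larvae. Each library pooled 80 ring glands from males and females of untreated animals grown on standard media, and the comparison asks how ring gland transcripts differ between the 2 genotypes. Larvae were matched by stage, and per the study's methods were about 7 days old for kdm5[140] and 5 days old for WT, so genotype and age cannot be told apart. Whether the 4 pools of a genotype came from separate cultures is not given in the sources used here, so p-values measure the spread between pools.

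Glycolysis splits a sugar into a pair of triose phosphates and oxidises them to pyruvate, with a small yield of ATP and NADH. Hexokinase, phosphofructokinase and pyruvate kinase catalyse the practically irreversible steps where flux is mostly controlled, and the enzymes between them work close to equilibrium. Pyruvate can then enter mitochondria, where pyruvate dehydrogenase turns it into acetyl-CoA, or be reduced to lactate. The ring gland is the larval endocrine gland, and its bulk is the prothoracic gland, which makes the steroid ecdysone from cholesterol.

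Libraries held 17131110 to 18816043 counts for kdm5[140] and 17163795 to 19494692 counts for WT. Of 10 prothoracic gland markers, all were detected and tested, and their summed level was 38300 to 49200 CPM in kdm5[140] libraries, against 50300 to 55600 CPM in WT libraries. This sum rests mostly on phm, sad, Npc1a and spok, the markers with the highest levels. Of the 10 markers, 3 were higher (sro, dib and CG11762) and 1 was lower (spok) by edgeR's quasi-likelihood test at a false discovery rate (FDR) under 0.01. Their log2 fold changes were positive for 4 and negative for 6. CPM (counts divided by the library size and scaled to a common total) used edgeR's TMM library sizes throughout. The Kdm5 transcript, listed as lid, was at 200, 193, 194 and 195 CPM in the libraries labelled kdm5[140], against 172, 144, 144 and 155 CPM in WT libraries. It was higher in all 4 libraries labelled kdm5[140] than in any WT library, by a log2 fold change of 0.35 (SE 0.07, FDR 0.00437 in edgeR). That call was kept in 2 of the 8 fits that left out 1 library. The level of a transcript does not show whether functional protein is made, so it does not test the null label. Every direction below is given for libraries labelled kdm5[140].

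Of the 10 glycolytic genes, Hex-A passed the test as higher in libraries labelled kdm5[140], Tpi and PyK passed as lower, and 7 did not pass. Across all 9317 genes tested, 17.5% passed the FDR of 0.01, 7.91% as higher and 9.62% as lower, and the median log2 fold change was 0.02. At an adjusted p under 0.01, DESeq2 called 21.9% of 11170 genes, and limma called 1610 genes. The share of all genes at an unadjusted p under 0.05 was not computed, so counts at that level below have no background beside them. All 10 members passed the filter on low counts. Their median log2 fold change was -0.20, with 8 negative and 2 positive values. The libraries of the 2 labels did not overlap for 4 members, Hex-A, Tpi, Gapdh2 and PyK, beside 33.2% of all genes tested (15.6% higher and 17.6% lower). At an FDR of 0.05, 5 members passed, 4 of them lower, beside 30.9% of all genes tested and 16.5% as lower. In these bulk libraries, fewer cells of a type and less RNA per cell cannot be told apart.

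**Figure D1:**
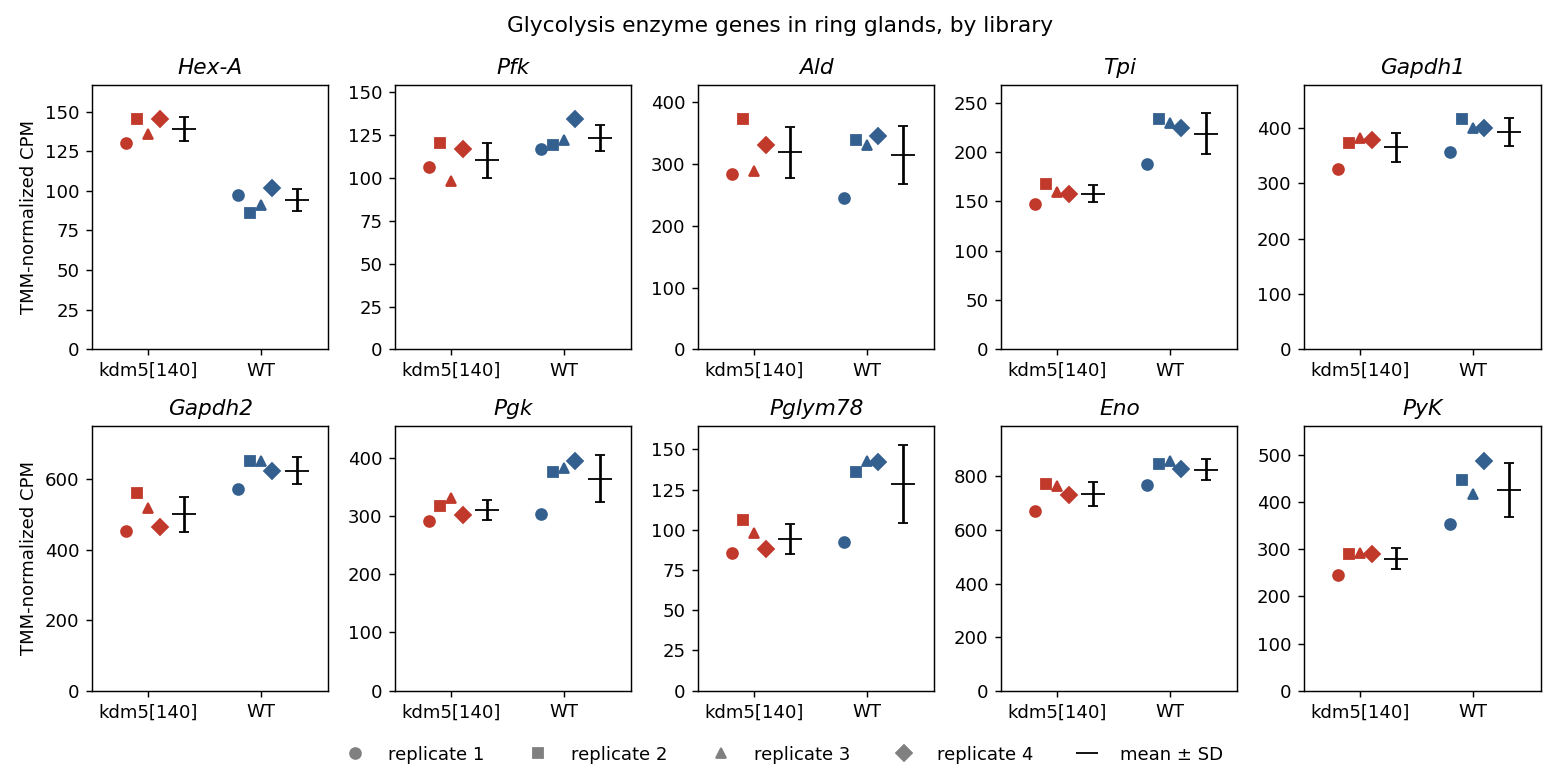
CPM of each of the 10 genes in every library, in pathway order, with 1 panel per gene. Points are the 4 libraries labelled kdm5[140] (left) and the 4 WT libraries (right), and bars give the mean and SD. Hex-A lies above all WT libraries and Tpi, Gapdh2 and PyK lie below them, while the points of the other 6 genes overlap.

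Hex-A, which phosphorylates glucose as it enters the pathway, was the only member that passed the test as higher. The gene lies on chromosome X, positions 9585675 to 9589813 of dm6, plus strand, with an exonic length of 4139 bases. It had 130, 145, 136 and 145 CPM in kdm5[140] libraries, against 97.5, 86.3, 91.0 and 102 CPM in WT libraries. The lowest kdm5[140] library thus stood above the highest WT library. Means were 139 ± 7.21 CPM in kdm5[140] and 94.2 ± 6.93 CPM in WT (SD, n = 4 each), a 1.48-fold difference with a log2 fold change of 0.56 (95% interval 0.41 to 0.72, FDR 0.000334 in edgeR). The call was kept in all 8 fits without 1 library, with log2 fold changes of 0.52 to 0.61.

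Pfk encodes phosphofructokinase, the main control point of the pathway in animals. It lies on chromosome arm 2R, positions 10109740 to 10117457, plus strand, with 4377 exonic bases. It was at 106, 120, 97.9 and 117 CPM in kdm5[140] libraries, against 117, 119, 122 and 134 CPM in WT libraries. The ranges overlapped, and the log2 fold change of -0.16 (95% interval -0.34 to 0.01, FDR 0.149 in edgeR) did not pass the test.

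Ald, the aldolase that splits the hexose bisphosphate, differed least between the labels. This gene lies on chromosome arm 3R, positions 26254069 to 26261591, minus strand, with 3809 exonic bases. It was at 284, 372, 289 and 330 CPM in kdm5[140] libraries, against 245, 339, 331 and 345 CPM in WT libraries. WT replicate 1 was the lowest of all 8 libraries. The log2 fold change was 0.02 (95% interval -0.27 to 0.30, FDR 0.94 in edgeR) and its sign turned to -0.09 without that library. An antisense gene shares 338 exonic bases with Ald on the other strand. It held 0 to 13 counts per library, and whether reads were counted by strand is not given in the sources used here.

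Tpi, the isomerase that interconverts the triose phosphates, passed the test as lower. Its position is chromosome arm 3R, positions 30132981 to 30134599, minus strand, with 1558 exonic bases. It was at 147, 168, 159 and 157 CPM in kdm5[140] libraries, against 188, 233, 229 and 224 CPM in WT libraries. Every kdm5[140] library was below every WT library. Means were 158 ± 8.57 CPM in kdm5[140] and 218 ± 20.7 CPM in WT (SD, n = 4 each), 1.38-fold lower in kdm5[140]. The log2 fold change was -0.47 (95% interval -0.65 to -0.29, FDR 0.00201 in edgeR) and passed in all 8 fits without 1 library. Scaled by library totals alone, it was -0.37 with an FDR of 0.0117 in edgeR, and the call was lost.

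Gapdh1 and Gapdh2 encode glyceraldehyde phosphate dehydrogenase, the step that makes NADH. Gapdh1 lies on 2R (7791901 to 7793380, minus strand, 1480 exonic bases) and Gapdh2 on X (15868145 to 15869661, plus strand, 1443 exonic bases). Gapdh1 was at 326, 373, 381 and 378 CPM in kdm5[140] libraries, against 357, 415, 399 and 399 CPM in WT libraries. Its ranges overlapped, with a log2 fold change of -0.11 (95% interval -0.27 to 0.06, FDR 0.309 in edgeR). Gapdh2 was at 454, 560, 519 and 465 CPM in kdm5[140] libraries, against 571, 652, 650 and 622 CPM in WT libraries. The Gapdh2 ranges did not overlap, but its log2 fold change of -0.32 (95% interval -0.51 to -0.13) had an FDR of 0.0169 in edgeR and missed the threshold of 0.01. It passed with DESeq2 (adjusted p = 0.00168) and in edgeR without WT replicate 1 (FDR 0.00824), the only 1 of the 8 fits without 1 library that passed. In edgeR it also passed with a gene length offset (FDR 0.00969) or a replicate block (FDR 0.00459). Gapdh2 did not pass with limma (adjusted p = 0.0155) or with library totals alone (FDR 0.0646 in edgeR).

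The balance between these 2 genes of the same enzyme was also compared, as counts per kilobase of exon within each library. The ratio of Gapdh1 to Gapdh2 was 0.70, 0.649, 0.717 and 0.793 in kdm5[140] libraries, against 0.61, 0.619, 0.599 and 0.626 in WT libraries. Gapdh1 thus took 39.4% to 44.2% of the pair in kdm5[140] libraries and 37.5% to 38.5% in WT libraries, ranges that did not overlap. This ratio is given as values with no test, and reads that the related sequences may share were not assessed.

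Pgk, phosphoglycerate kinase, catalyses the first of the ATP-forming steps. The gene lies on chromosome arm 2L, positions 2746880 to 2753068, minus strand, with 2112 exonic bases. It was at 292, 318, 331 and 302 CPM in kdm5[140] libraries, against 304, 376, 382 and 395 CPM in WT libraries. The ranges overlapped only through WT replicate 1. The log2 fold change of -0.23 (95% interval -0.43 to -0.03, FDR 0.0785 in edgeR) did not pass, whereas without WT replicate 1 it was -0.31 with an FDR of 0.00487 in edgeR.

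Pglym78, the phosphoglycerate mutase, showed the same dependence on that library. It lies on chromosome arm 3R, positions 29148248 to 29149901, plus strand, with 1136 exonic bases. It was at 85.4, 106, 97.8 and 88.2 CPM in kdm5[140] libraries, against 92.5, 136, 143 and 142 CPM in WT libraries. WT replicate 1 fell within the kdm5[140] range and the other 3 WT libraries were above it. The log2 fold change was -0.45 (95% interval -0.76 to -0.13, FDR 0.0368 in edgeR), and without WT replicate 1 it was -0.58 with an FDR of 0.000594 in edgeR.

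Eno, the enolase that makes phosphoenolpyruvate, was the member with the most counts. Eno maps to chromosome arm 2L, positions 1724768 to 1729636, minus strand, with 3718 exonic bases. It was at 672, 771, 765 and 731 CPM in kdm5[140] libraries, against 769, 845, 859 and 829 CPM in WT libraries. The highest kdm5[140] library was only just above the lowest WT library. The log2 fold change of -0.17 (95% interval -0.32 to -0.01, FDR 0.0952 in edgeR) did not pass. Eno shares 362 exonic bases with Rrp40, which lies on the other strand and held 208 to 293 counts per library. The effect of this overlap on the Eno counts was not assessed. Shorter overlaps of 65 bases for Pgk and 6 bases for Pglym78 were also found in the annotation.

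PyK, the pyruvate kinase that ends the pathway with a further ATP-forming step, had the largest fall among the members. PyK maps to chromosome arm 3R, positions 22367536 to 22372746, plus strand, with 2242 exonic bases. It was at 246, 291, 292 and 289 CPM in kdm5[140] libraries, against 353, 446, 417 and 488 CPM in WT libraries. The groups were well apart. Means were 279 ± 22.4 CPM in kdm5[140] and 426 ± 57.0 CPM in WT (SD, n = 4 each), 1.53-fold lower in kdm5[140], with a log2 fold change of -0.61 (95% interval -0.84 to -0.38, FDR 0.00202 in edgeR). All 8 fits without 1 library kept the call, with log2 fold changes of -0.69 to -0.53.

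**Figure D2:**
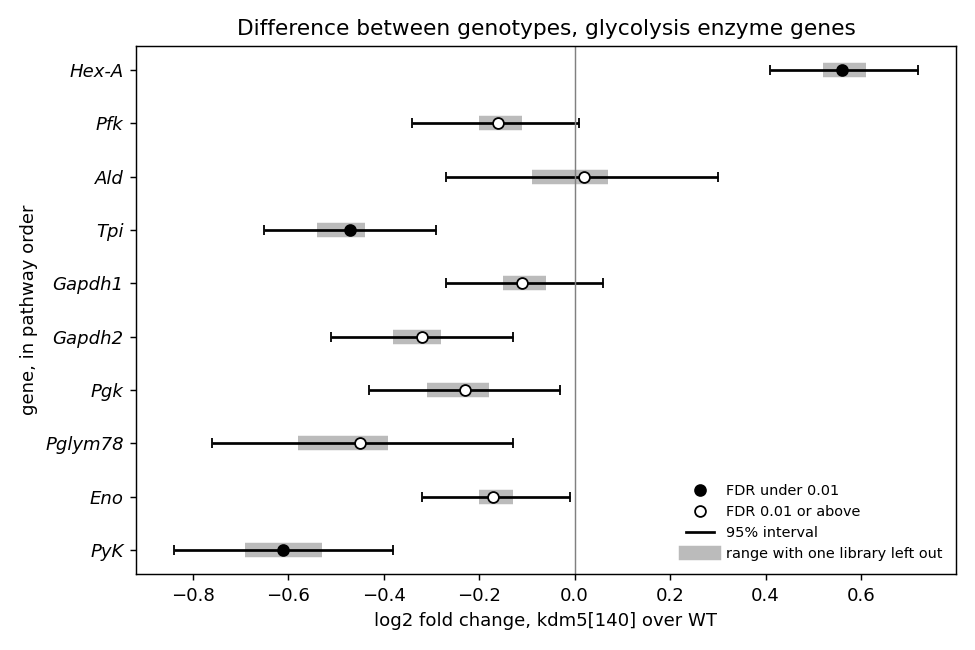
Log2 fold change of each gene, kdm5[140] over WT, in pathway order. Points are edgeR estimates with their 95% intervals, filled where the FDR was under 0.01, and grey bars give the range over the 8 fits without 1 library. Hex-A at 0.56 lies opposite PyK at -0.61, at the entry and the exit of the pathway, and Ald at 0.02 sits on the zero line.

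The first and last enzymes of the pathway were therefore the members with the largest changes, in opposite directions. Per kilobase, the ratio of Hex-A to PyK was 0.287, 0.270, 0.254 and 0.271 in kdm5[140] libraries, against 0.15, 0.105, 0.118 and 0.113 in WT libraries. This pair was chosen after its values were seen and carries no test.

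Levels of the members differed far more from gene to gene than between the labels. Per kilobase of exon, Gapdh2 led with a mean of 346 ± 34.2 CPM in kdm5[140] and 432 ± 26.1 CPM in WT (SD, n = 4 each). Gapdh1 came next with 246 CPM per kilobase in kdm5[140] and 265 in WT, followed by Eno with 198 in kdm5[140] and 222 in WT. The 2 members nearest the top of the pathway were the lowest. Hex-A averaged 33.6 CPM per kilobase in kdm5[140] and 22.8 in WT, and Pfk averaged 25.2 in kdm5[140] and 28.1 in WT. Both still stood in the upper part of all genes tested, Hex-A at percentile 77.6 in kdm5[140] and 67.4 in WT, and Pfk at percentile 70.5 in kdm5[140] and 72.9 in WT.

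Hex-A was above Pfk in all 4 kdm5[140] libraries and below it in all 4 WT libraries. In the middle of the order, Pgk averaged 147 CPM per kilobase in kdm5[140] and 172 in WT, and PyK averaged 125 in kdm5[140] and 190 in WT. Pgk exceeded PyK in all 4 kdm5[140] libraries, and PyK exceeded Pgk in all 4 WT libraries. Tpi followed with 101 CPM per kilobase in kdm5[140] and 140 in WT. Ald and Pglym78 did not differ beyond their spread in kdm5[140], with 83.6 ± 10.8 and 82.9 ± 8.13 CPM per kilobase (SD, n = 4 each). In WT, Pglym78 at 113 ± 21.2 exceeded Ald at 82.7 ± 12.4 CPM per kilobase in all 4 libraries, although their ranges overlapped. In WT the ranges of neighbours also overlapped from Eno down to Tpi.

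**Figure D3:**
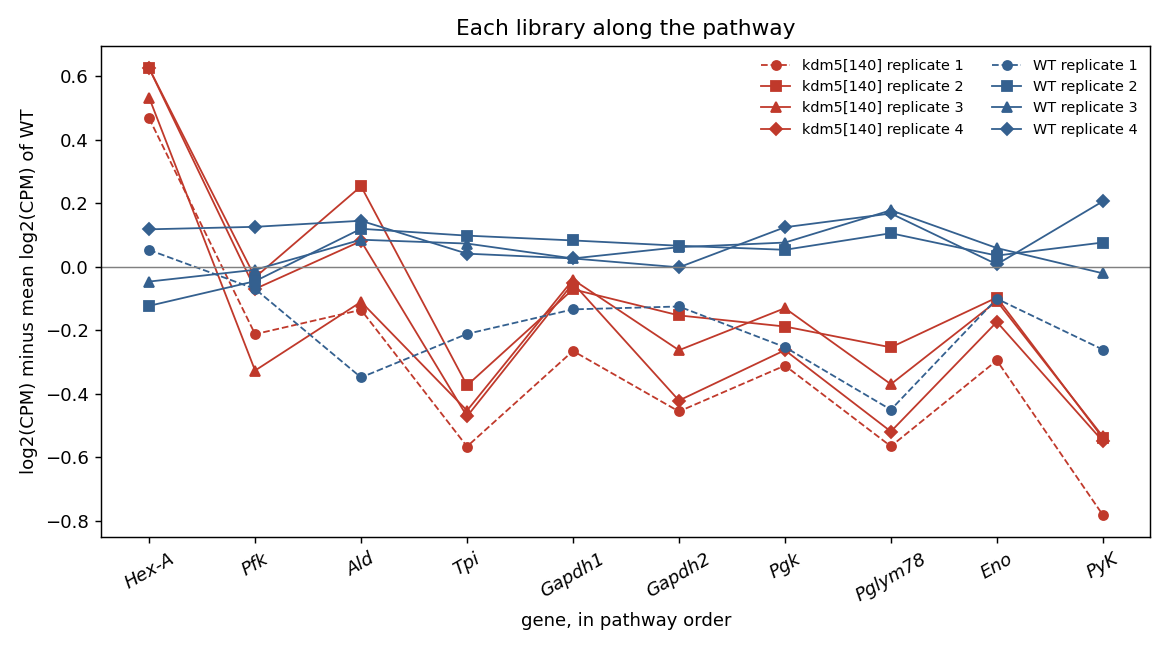
Log2 CPM of each gene minus its WT mean, drawn along the pathway with 1 line per library. Lines are the 4 kdm5[140] and 4 WT libraries, and replicate 1 of each label is dashed. The dashed lines run below the others of their label for 9 of the 10 genes, and the kdm5[140] lines fall below the WT lines at Tpi, Gapdh2 and PyK.

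The members also varied together among libraries of the same label. Replicate 1 was the lowest library of its label for 9 of 10 members in kdm5[140] and for 9 of 10 members in WT, with median log2 deviations from the label's mean of -0.13 in kdm5[140] and -0.17 in WT. The same deviation over all genes was -0.01 in both libraries, but TMM scaling keeps this value small in every library. It is thus no control for the members, and the share of all genes lowest in replicate 1 was not counted. Summed over the members, the level was 2742, 3223, 3067 and 3002 CPM in kdm5[140] libraries, against 3094, 3646, 3624 and 3680 CPM in WT libraries. The lowest WT library thus fell inside the kdm5[140] range, and the members took 0.289% to 0.338% of all counts in kdm5[140] and 0.289% to 0.364% in WT. Without WT replicate 1, edgeR called 6 members, 5 of them lower, beside 19.2% of all genes tested in that fit. Of its 9526 genes, 957 were called lower. The 3 added members were Gapdh2, Pgk and Pglym78.

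Levels of other cell types' markers are given beside these values, since muscle in particular is rich in glycolytic enzymes. Of 15 muscle markers, 14 were tested. None passed the FDR of 0.01 in edgeR, with 7 at an unadjusted p under 0.05. Log2 fold changes of these markers were positive for 12 and negative for 2. At an FDR of 0.05 in edgeR, 4 passed, 1 of them lower, beside 30.9% of all genes. Beside its 21.9% of all genes, DESeq2 called 3 of these markers, and limma called 1. Their median log2 fold change was 0.18, and their summed level was 1450 to 1820 CPM in kdm5[140] and 1320 to 1710 CPM in WT, with no marker at 0 in every library. Fat body markers summed to 1100 to 5710 CPM in kdm5[140], highest in replicate 4, and to 811 to 2510 CPM in WT. Salivary gland markers summed to 246 to 2720 CPM in kdm5[140] and 623 to 1370 CPM in WT. No fat body or salivary gland marker passed in edgeR, DESeq2 or limma, and none had an unadjusted p under 0.05 in edgeR. Neuron markers summed to 170 to 252 CPM in kdm5[140] and 134 to 202 CPM in WT. All 6 had positive log2 fold changes, with a median of 0.41, and 1 was called higher. Trachea markers summed to 1500 to 1950 CPM in kdm5[140] and 1740 to 2500 CPM in WT. Of these 5, 4 had negative log2 fold changes, with a median of -0.34, and 1 was called lower. Haemocyte markers summed to 194 to 460 CPM in kdm5[140] and 179 to 416 CPM in WT, with a median log2 fold change of 0.83. None of 5 passed in edgeR or limma, 2 had an unadjusted p under 0.05 in edgeR, and DESeq2 called 1, beside its 21.9%. Of the other ring gland parts, corpus allatum markers summed to 732 to 899 CPM in kdm5[140] and 876 to 963 CPM in WT, with 1 of 3 tested lower. Corpus cardiacum markers summed to 1410 to 1570 CPM in kdm5[140] and 977 to 1460 CPM in WT, and all 4 had positive log2 fold changes, with a median of 0.38. No corpus cardiacum or glia marker passed in edgeR, DESeq2 or limma or had an unadjusted p under 0.05 in edgeR, and glia markers summed to 171 to 196 CPM in kdm5[140] and 154 to 202 CPM in WT. The prothoracic gland list was mixed by gene, as given above, although its sum was lower. The part of all these cells in the glycolytic values was not tested.

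Most related genes of the same enzymes had few or no counts. Of 13 genes on a list of paralogues that also held Pgi, 4 had enough counts to be tested. None passed the FDR of 0.01 in edgeR, DESeq2 or limma, and 2 had an unadjusted p under 0.05 in edgeR. These were CG12229 (log2 fold change 1.49, FDR 0.0184 in edgeR) and CG9961 (1.01, FDR 0.0467 in edgeR). Both were higher at low levels, with means of 1.33 CPM in kdm5[140] and 0.47 CPM in WT for CG12229. For CG9961 the means were 2.09 CPM in kdm5[140] and 1.04 CPM in WT. Pgi, the isomerase that works between hexokinase and phosphofructokinase, was at 160, 203, 177 and 178 CPM in kdm5[140] libraries, against 164, 212, 198 and 215 CPM in WT libraries. Its ranges overlapped, with a log2 fold change of -0.14 (95% interval -0.36 to 0.09, FDR 0.333 in edgeR). Hex-C, a further hexokinase, had only 4, 15, 5 and 22 counts in kdm5[140] libraries and 10, 3, 11 and 8 counts in WT libraries, and was not tested. Hex-A, by contrast, had 2259 to 2908 counts in kdm5[140] libraries and 1448 to 1939 counts in WT libraries.

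Pyruvate's entry into mitochondria was the neighbouring process with the most falls. Of 17 genes for the fates of pyruvate and NADH, 16 were tested and 7 were lower, none higher, with a median log2 fold change of -0.39 beside 0.02 for all genes. Log2 fold changes were negative for 11 and positive for 5. Of the 7 lower genes, 4 encode the pyruvate dehydrogenase complex and 2 the mitochondrial pyruvate carrier. At an FDR of 0.05 in edgeR, 9 genes passed, 7 of them lower, beside 30.9% of all genes and 16.5% as lower. ImpL3, given below, and CG1516 (log2 fold change 0.45, FDR 0.0222 in edgeR) were the higher ones. DESeq2 called 9 genes of the list, ImpL3 among them as higher, beside its 21.9% of all genes, and limma 4. The background of lower genes was the 9.62% given above.

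All 4 pyruvate dehydrogenase transcripts were below WT in every kdm5[140] library. The E1 alpha subunit gene l(1)G0334 was at 103, 107, 133 and 107 CPM in kdm5[140] libraries, against 150, 157, 167 and 155 CPM in WT libraries, a log2 fold change of -0.48 (SE 0.09, FDR 0.0024 in edgeR). CG11876, for the E1 beta subunit, was at 143, 144, 162 and 137 CPM in kdm5[140] libraries, against 185, 208, 207 and 190 CPM in WT libraries (log2 fold change -0.43, SE 0.07, FDR 0.00183 in edgeR). Both subunit transcripts of the E1 enzyme were thus lower. CG5261, for the E2 acetyltransferase, was at 89.3, 90.8, 96.6 and 95.7 CPM in kdm5[140] libraries, against 127, 129, 122 and 136 CPM in WT libraries (log2 fold change -0.47, SE 0.06, FDR 0.000341 in edgeR). CG7430, for the dihydrolipoamide dehydrogenase that other complexes share, was at 217, 231, 243 and 218 CPM in kdm5[140] libraries, against 294, 328, 335 and 316 CPM in WT libraries (log2 fold change -0.49, SE 0.07, FDR 0.000607 in edgeR). The calls for CG11876, CG5261 and CG7430 were kept in all 8 fits without 1 library, and that for l(1)G0334 in 6.

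The carrier genes that bring pyruvate into mitochondria were lower with less stable calls. Mpc1 was at 10.3, 10.9, 9.61 and 10.2 CPM in kdm5[140] libraries, against 12.2, 19.1, 18.9 and 18.4 CPM in WT libraries (log2 fold change -0.74, SE 0.15, FDR 0.0046 in edgeR). WT replicate 1 was the WT library closest to kdm5[140]. CG9399, a further carrier subunit, was at 5.37, 6.07, 5.56 and 7.82 CPM in kdm5[140] libraries, against 8.39, 11.3, 12.5 and 14.0 CPM in WT libraries (log2 fold change -0.90, SE 0.19, FDR 0.00655 in edgeR). The call was kept in 1 of 8 fits without 1 library for Mpc1 and in 2 of 8 for CG9399.

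Gpdh, the glycerol phosphate dehydrogenase that returns cytosolic NADH to NAD, was the other gene lower on this list. It was at 87.3, 109, 105 and 105 CPM in kdm5[140] libraries, against 117, 131, 154 and 145 CPM in WT libraries (log2 fold change -0.43, SE 0.10, FDR 0.00992 in edgeR). The groups did not overlap, but the call was kept in only 1 of 8 fits without 1 library, and Gpdh overlaps a noncoding gene in the annotation. The lactate dehydrogenase gene, listed as ImpL3, was at 52.3, 98.2, 30.7 and 35.1 CPM in kdm5[140] libraries, against 19.5, 13.2, 18.3 and 11.9 CPM in WT libraries. All kdm5[140] libraries were above all WT libraries, with a wide spread in kdm5[140]. The log2 fold change of 1.78 (SE 0.40, 95% interval 0.84 to 2.72) had an FDR of 0.0139 in edgeR and missed the threshold. It passed with DESeq2 (adjusted p = 0.000221), and in edgeR without kdm5[140] replicate 2 (log2 fold change 1.32, FDR 0.00639) or without kdm5[140] replicate 3 (1.97, FDR 0.00785). These were the only 2 of the 8 fits without 1 library that passed. Scaled by library totals alone, ImpL3 passed (FDR 0.00897 in edgeR), but it did not pass with limma (adjusted p = 0.0285).

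Of 11 genes for sugar entry, glycogen and trehalose, 10 were tested and 1 was lower, close to the 9.62% of all genes called lower, with a median log2 fold change of 0.05. At an unadjusted p under 0.05 there were 4 in edgeR. DESeq2 called 2, beside its 21.9% of all genes, and limma 1. The lower gene was GlyS, glycogen synthase, at 69.2, 76.4, 70.5 and 78.8 CPM in kdm5[140] libraries, against 91.3, 106, 110 and 110 CPM in WT libraries (log2 fold change -0.50, SE 0.08, FDR 0.00123 in edgeR). All 8 fits without 1 library kept this call. Tret1-1, a trehalose transporter named after its values were seen, was at 19.5, 14.2, 12.4 and 42.4 CPM in kdm5[140] libraries, against 6.75, 7.51, 6.12 and 7.10 CPM in WT libraries. All kdm5[140] libraries were above all WT libraries, with the highest in replicate 4, but the log2 fold change of 1.69 (SE 0.38) had an FDR of 0.0113 in edgeR and missed the threshold. Of 7 genes of the pentose phosphate pathway, which branches off at glucose phosphate, none passed in edgeR or limma. In edgeR 2 of these genes had an unadjusted p under 0.05, and DESeq2 called 2, beside its 21.9% of all genes. The median log2 fold change of the 7 was -0.11.

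Of 4 genes for gluconeogenesis and for the control of phosphofructokinase, 3 were tested and 1 was lower, beside 9.62% of all genes, and all 3 had an unadjusted p under 0.05 in edgeR. Pfrx, whose enzyme makes and removes the sugar bisphosphate that activates phosphofructokinase, was at 35.3, 36.5, 37.0 and 41.1 CPM in kdm5[140] libraries, against 62.3, 60.3, 59.4 and 69.8 CPM in WT libraries. The groups were far apart beside their spread, with a log2 fold change of -0.75 (SE 0.08, FDR 0.0001 in edgeR) that passed in all 8 fits without 1 library. Pfk itself, as given above, did not pass. The gene fbp, for the phosphatase that reverses the phosphofructokinase step, was at 30.2, 30.2, 29.4 and 37.6 CPM in kdm5[140] libraries, against 44.0, 38.5, 37.6 and 34.1 CPM in WT libraries (log2 fold change -0.27, FDR 0.0715 in edgeR), with overlapping ranges. Of the other 2 genes on this list, CG10924 was at 23.3, 13.4, 12.9 and 42.9 CPM in kdm5[140] libraries, against 16.1, 10.4, 7.59 and 8.31 CPM in WT libraries (log2 fold change 1.13, SE 0.44, FDR 0.0908 in edgeR), with overlapping ranges. Pepck was listed at 0 counts in every library, but all of its 2486 exonic bases are shared with CG45087 on the same strand, and reads that fall in both genes may go uncounted, so its level was not read.

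Among 11 transcription factors and other regulators tied to sugar metabolism, all were tested, 1 was higher and 1 was lower, a share close to the 17.5% of all genes called, with a median log2 fold change of 0.09. In edgeR, 5 had an unadjusted p under 0.05 and 4 passed an FDR of 0.05, the latter beside 30.9% of all genes. The lower gene was crc, which encodes the fly counterpart of ATF4, a factor of the amino acid and stress response. It was at 892, 957, 963 and 826 CPM in kdm5[140] libraries, against 1510, 1810, 1730 and 1950 CPM in WT libraries, a log2 fold change of -0.94 (SE 0.09, FDR 8.5e-05 in edgeR) that passed in all 8 fits without 1 library. Of the 3423 exonic bases of crc, 2515 are shared on the same strand with CG46314, and RNA of these genes cannot be told apart there. The higher gene was sima, the fly HIF alpha subunit that drives glycolytic genes in low oxygen, at 186, 178, 164 and 176 CPM in kdm5[140] libraries, against 155, 132, 127 and 148 CPM in WT libraries. Its log2 fold change of 0.33 (SE 0.08, FDR 0.00975 in edgeR) lay close to the threshold and was called in 1 of 8 fits without 1 library. ERR, the nuclear receptor that switches on glycolytic genes in the fly embryo, was at 12.7, 9.77, 13.3 and 10.1 CPM in kdm5[140] libraries, against 10.5, 8.88, 9.41 and 12.2 CPM in WT libraries. Its ranges overlapped (log2 fold change 0.16, FDR 0.454 in edgeR), and it shares 1160 exonic bases in all with 3 genes on the other strand.

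**Figure D4:**
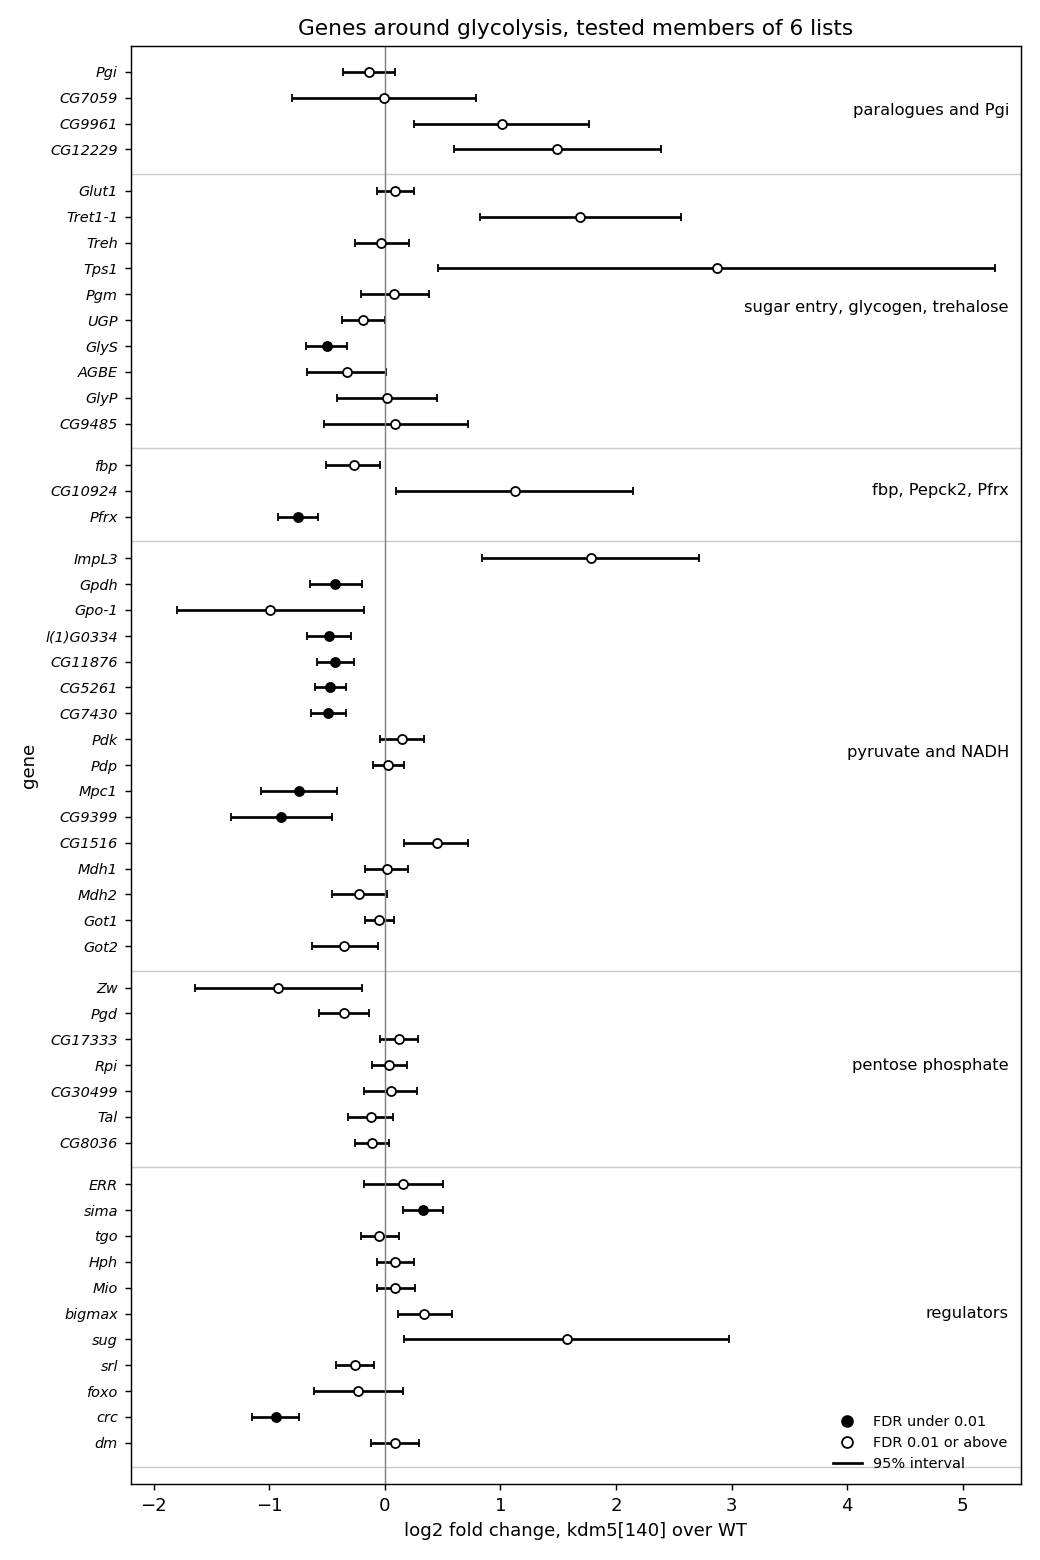
Log2 fold changes, kdm5[140] over WT, of the tested genes on 6 lists around glycolysis, from the paralogues at the top to the regulators at the bottom. Each point is 1 gene with its 95% interval from edgeR, filled where the FDR was under 0.01. The genes for the fates of pyruvate and NADH have 7 filled points, all below zero, and the pentose phosphate genes have none.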

How the data were processed

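Reads were aligned to dm6 by the authors (HISAT2 2.0.5, StringTie 1.3.3b) and counted per gene with featureCounts 1.5.0-p3. The authors deposited whole-number counts without normalization, and these alone were used. The deposited table also holds FPKM, a mean normalized signal per genotype, and the authors' own log2 fold changes and p-values, which were not used here. Counts of all 17558 genes entered a robust quasi-likelihood fit in edgeR 4.0.16 (R 4.3.3) after filterByExpr and TMM scaling. P-values were adjusted over the 9317 tested genes by the Benjamini-Hochberg method, and an FDR under 0.01 was called. Standard errors and 95% intervals of log2 fold changes came from the fit's F statistic. The filter keeps genes with enough counts in at least as many libraries as a genotype has, and all 10 members passed it.

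Libraries of a genotype differed by more than sampling noise (chi-square per degree of freedom 11.19 to 62.25), so none was counted as a repeat. Alternatives were DESeq2 1.42.0, limma 3.58.1 (voom), other scalings, no filter, a gene length offset, protein-coding genes alone, a replicate block, an FDR of 0.05 and each library left out. Coordinates and overlaps were looked up in the Ensembl 115 annotation, in which 17252 genes were matched by identifier and 98.4% of them had the same coordinates. Promoter and protein sequences were not analysed here. Python 3.11.15 and pandas 2.3.3 were used for summaries.

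The members, lists and tests were chosen with earlier results of these data known. All 10 members were named. Of the related lists, genes with an FDR under 0.01 were named, with Ldh (listed as ImpL3), Pgi, Hex-C, fbp and ERR whatever their value, and lid as the targeted gene. Outside this rule, Tret1-1, CG10924, Pepck, CG1516, CG12229 and CG9961 were also named with their values known, and other genes at similar FDRs were not.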

Additional observations from a re-analysis of the deposited data

Results flagged for a closer look

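Within each label, the highest and lowest of the 4 libraries were compared with the rest for the 27 genes named under the rule above, 54 groups in all. Dixon's 95% limit for 4 samples was passed in 7 of them, and chance flags about 1 in 20 groups. In 5 of the 7, replicate 1 of a label was the low library.

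Among the members, Gapdh1 was at 326 CPM in kdm5[140] replicate 1, with the others at 373 to 381 CPM, and PyK was at 246 CPM in that library, with the others at 289 to 292 CPM. In WT replicate 1, Ald was at 245 CPM, with the others at 331 to 345 CPM, and Pglym78 was at 92.5 CPM, with the others at 136 to 143 CPM. Mpc1 was also low in WT replicate 1, at 12.2 CPM against 18.4 to 19.1 CPM in the other WT libraries. On the high side, l(1)G0334 was at 133 CPM in kdm5[140] replicate 3, with the others at 103 to 107 CPM, and fbp was at 37.6 CPM in kdm5[140] replicate 4, with the others at 29.4 to 30.2 CPM. The PyK call was kept without its low library and without any other single one, at log2 fold changes of -0.69 to -0.53.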

How the results depend on the processing

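The calls of Hex-A and PyK were kept under every alternative run, and that of Tpi under all but scaling by library totals. That scaling left 1 member lower in place of 2, moved the median log2 fold change of all genes to 0.12, against 0.02 with TMM, and the share of lower genes among those called to 36.1%, against 54.9%. Leaving out 1 library gave 3 to 6 called members, 2 to 5 of them lower, and over all genes 960 to 1827 called, 537 to 957 lower and 423 to 870 higher. On the lists of neighbouring genes it gave 6 to 13 called, against 11 with all libraries, and on the paralogues 0. At an FDR of 0.05, 5 members passed, 4 of them lower, with 2 paralogues, 17 genes of the neighbouring lists and 2875 of all genes (1536 lower, 1339 higher). DESeq2 called 2443 genes, 1160 of them higher, against 1633 and 737 in edgeR, and 4 members. The sign of Ald turned with a gene length offset, at -0.03, and in 3 of the 8 fits without 1 library, which ranged from -0.09 to 0.07. The log2 difference of the Gapdh1 to Gapdh2 ratio was 0.22, and 0.17 to 0.26 without 1 library. The causes of these shifts were not tested. Of 180 values for members under the alternatives, 167 kept direction and side of the threshold. The smallest change called among the named genes was 0.33 (sima, log2 scale), with 4 libraries a genotype at these depths.

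With a replicate block, 1617 genes and 4 members were called, Gapdh2 being added (FDR 0.00459 in edgeR), with 3 members lower and 12 genes of the neighbouring lists. The labels do not say whether replicate numbers pair the samples. Deviations of same-numbered libraries correlated at -0.117 to 0.189, and not every library correlated best with its own number. These weak correlations cannot decide whether same-numbered libraries share a batch, which was not tested.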
